A study of Mus musculus with 26 samples.

Results

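The genes described here encode 9 receptors or receptor chains for haematopoietic cytokines: Csf2rb, Csf2rb2, Csf2ra, Il3ra, Il5ra, Csf3r, Csf1r, Flt3 and Il1rl1. They were chosen by symbol, and all of their probes on the array were used, which gave 15 of 41174 probes and 9 of 18378 named genes. The RNA came from EML cells, a mouse haematopoietic line made by transducing bone marrow with a dominant-negative retinoic acid receptor, which depends on stem cell factor (SCF) and keeps the potential for red cell, myeloid and lymphoid fates. All groups were grown in medium with horse serum and SCF-conditioned medium, and the labels give EML as the cell line origin of all. Sample titles call the cells of the third array set EMLe2 and the others EML, and what EMLe2 stands for is not given in the labels. A first set of 9 arrays held 3 arrays each of the fractions Sca1hi, CR Sca1lo and EryCP, which were sorted on Sca1, CD34 and cKit. A second set of 6 arrays held 3 arrays of a new measurement of EryCP (EryCP repeat) and 3 of Ediff, the CD34-negative, cKit-negative cells obtained when EryCP cells differentiated under erythropoietin (Epo). The third set, of 11 arrays, held 4 arrays each of CD34- CD103- and CD34+ CD103- cells and 3 of CD34- CD103- cells taken through Epo-driven differentiation (CD34- CD103- Epo). No dose or duration of Epo was found in the labels.

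The granulocyte-macrophage colony-stimulating factor (GM-CSF), IL-3 and IL-5 receptors each pair an alpha chain that binds its own ligand (Csf2ra, Il3ra, Il5ra) with the common beta chain encoded by Csf2rb, which carries the signal through Jak2 and Stat5. The mouse has a second beta chain, Csf2rb2, that works with the IL-3 receptor only, and the 2 beta chain genes lie next to each other with 0 genes listed between them. Csf3r binds the granulocyte factor G-CSF, Csf1r and Flt3 are receptor tyrosine kinases of the macrophage and of early lymphoid and dendritic precursors, and Il1rl1 (ST2) is the IL-33 receptor of mast cells, basophils and eosinophils.

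Levels are log2 values of the processed signal against the 75th percentile of the same array, so that 0 is the level of that percentile. They can be set against each other for 1 probe within 1 array set, and not between probes or sets. Of the 15 probes 12 were well above background on all 26 arrays. Differences are given on the log2 scale ± standard error, with limma's Benjamini-Hochberg adjusted p (2-sided) over all genes. A difference was called at an adjusted p under 0.05. In tests, shares and medians, "all genes" includes each probe without a gene name as a feature of its own, 24513 to 27360 features by comparison. In these bulk samples, more cells of a type and more RNA per cell cannot be told apart. Nothing in the labels ties the arrays of a group to different cultures, so that p-values measure only the spread between these samples, which may be technical. The 75th percentile of the signal ranged from 424.3 to 1249 and 76% to 93.8% of probes per array were well above background. Each slide of the first set held 1 array of each fraction. The sort was visible in the RNA: the Sca1 gene Ly6a was lower in CR Sca1lo than in Sca1hi cells (-5.56 ± 0.14, n = 3 and 3), Cd34 was lower in EryCP than in CR Sca1lo cells (-4.72 ± 0.25) and in CD34- CD103- than in CD34+ CD103- cells (-1.78 ± 0.16, n = 4 and 4). Itgae, which encodes CD103, was well above background on all arrays, also in the CD103- groups, and higher in CD34- CD103- than in CD34+ CD103- cells (1.53 ± 0.13, adjusted p = 2.14e-05 by limma).

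Between CR Sca1lo and Sca1hi cells 4 of 9 members were called, against 3.6% of all genes, with 3 lower (2.38% of all genes) and 1 higher (1.22%). Between EryCP and CR Sca1lo cells 5 of 9 were called, against 5% of all genes, with 3 higher (2.7%) and 2 lower (2.3%). EryCP against Sca1hi, which shares arrays with both, gave 4 of 9 against 6.43%, with 3 higher (3.11%) and 1 lower (3.32%). Ediff differed from EryCP repeat in 7 of 8 tested members, where 56.6% of all genes were called, with 2 higher (39.7%) and 5 lower (16.8%). The share of members called thus says little by itself in this comparison. Il5ra, among the 5 lower, was tested only because all EryCP repeat arrays were well above background. In the third set 4 of 9 members were called between CD34- CD103- and CD34+ CD103- cells, against 12.2% of all genes, with 3 higher (5.62%) and 1 lower (6.57%). CD34- CD103- Epo cells differed from CD34- CD103- cells in 2 of 9 members, against 2.6% of all genes, both lower (1.84%) and 0 higher (0.757%). Against CD34+ CD103- cells they differed in 4 of 9, against 5.31%, with 3 higher (2.68%) and 1 lower (2.64%). These 3 comparisons share arrays too. The member called lower than in CD34+ CD103- cells was Csf3r, which was tested only because all arrays of that group were well above background.

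**Figure D1:**
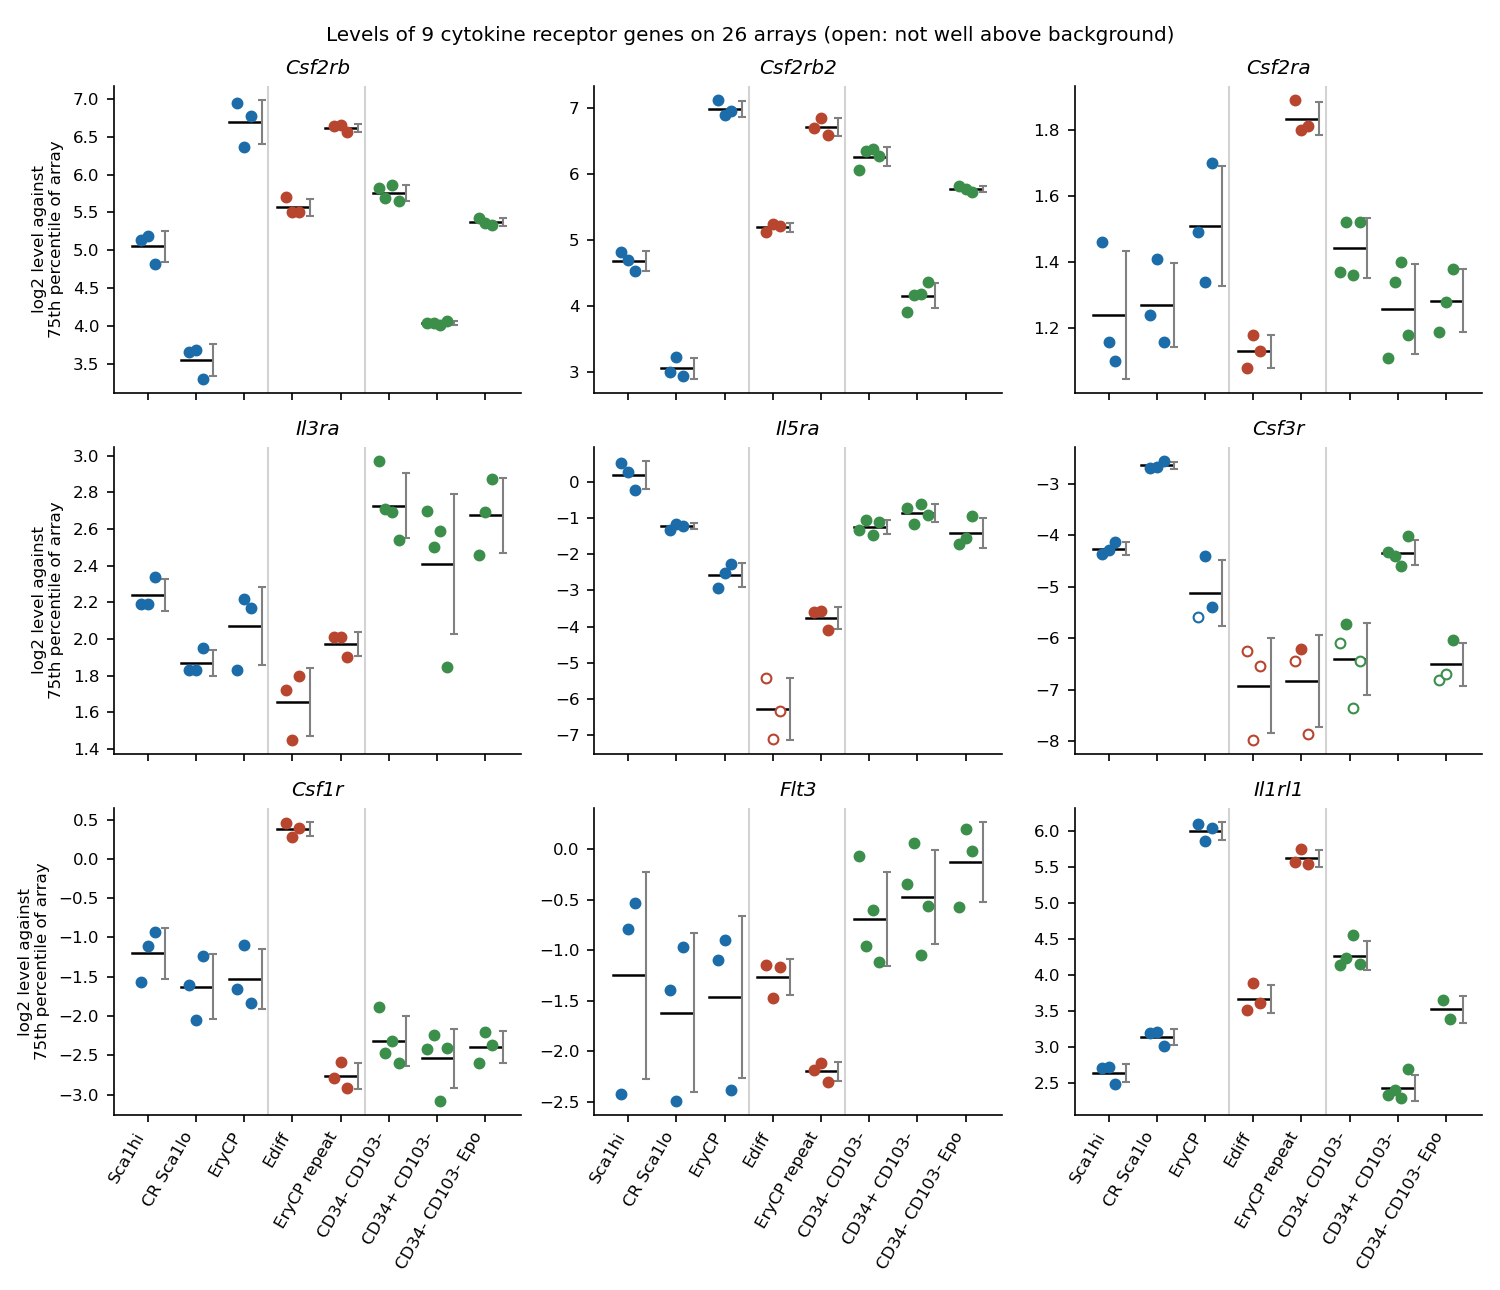
Log2 level of each member on every array (y axes, against the 75th percentile of the array; each panel has its own scale), for the brightest probe of each gene, by group (x axis). Points are arrays, open where the probe was not well above background, black lines are group means, grey bars are SD, and vertical lines part the 3 array sets. Csf2rb, Csf2rb2 and Il1rl1 stand highest in EryCP within the first set, Il5ra falls from 0.19 in Sca1hi to -2.57 in EryCP, and Csf3r is highest in CR Sca1lo.

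The beta chain genes dipped in CR Sca1lo cells and rose to their highest level in EryCP cells. Csf2rb stood at 5.14, 5.19 and 4.82 on the 3 Sca1hi arrays, at 3.65, 3.68 and 3.30 on the CR Sca1lo arrays and at 6.94, 6.37 and 6.77 on the EryCP arrays, and no fraction overlapped another. It was 2.84-fold lower in CR Sca1lo than in Sca1hi cells (-1.51 ± 0.2, adjusted p = 0.00582), 8.88-fold higher in EryCP than in CR Sca1lo cells (3.15 ± 0.2, adjusted p = 9.24e-05) and 3.13-fold higher in EryCP than in Sca1hi cells (1.65 ± 0.2, adjusted p = 0.00197). The last of these calls, and that of CR Sca1lo against Sca1hi, was lost with normexp background correction (2.08, adjusted p = 0.14, and -1.54, adjusted p = 1). Csf2rb2 followed the same course with wider steps. Its levels were 4.82, 4.70 and 4.53 in Sca1hi, 2.99, 3.23 and 2.93 in CR Sca1lo and 7.13, 6.90 and 6.96 in EryCP cells, again without overlap. It was 3.1-fold lower in CR Sca1lo than in Sca1hi cells (-1.63 ± 0.15, adjusted p = 0.00106) and 15.4-fold higher in EryCP than in CR Sca1lo cells (3.95 ± 0.15, adjusted p = 1.19e-05), where the 3 slides gave 3.73 to 4.14. From Sca1hi to EryCP its difference was 2.32 ± 0.15 (adjusted p = 7.33e-05). Normexp ended the Csf2rb2 call of CR Sca1lo against Sca1hi too (-1.85, adjusted p = 0.954).

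Both beta chain genes fell from EryCP repeat to Ediff, and both were high in CD34- CD103- against CD34+ CD103- cells. In the second set Csf2rb stood at 6.64, 6.65 and 6.56 in EryCP repeat cells and at 5.70, 5.50 and 5.50 in Ediff cells, a difference of -1.05 ± 0.1 (adjusted p = 0.000345). Csf2rb2 went from 6.70, 6.86 and 6.59 to 5.12, 5.25 and 5.22 (-1.52 ± 0.11, adjusted p = 0.00011). No Ediff array reached the EryCP repeat arrays for either gene. In this comparison the median difference of all genes was 0.46, and -0.49 when arrays were scaled on spike-in RNA, so that members are also given against the median of all genes: Csf2rb lay at -1.51 and Csf2rb2 at -1.98. In the third set Csf2rb stood at 5.82, 5.69, 5.86 and 5.65 in CD34- CD103- cells, at 4.04, 4.04, 4.01 and 4.07 in CD34+ CD103- cells and at 5.43, 5.36 and 5.33 in CD34- CD103- Epo cells. CD34- CD103- cells were thus 3.28-fold above CD34+ CD103- cells (1.71 ± 0.07, adjusted p = 1.16e-07), and the CD34+ arrays spanned only 4.01 to 4.07. For Csf2rb2 the levels were 6.06, 6.35, 6.38 and 6.28 in CD34- CD103- cells, 3.9, 4.17, 4.18 and 4.37 in CD34+ CD103- cells and 5.82, 5.78 and 5.73 in CD34- CD103- Epo cells. The difference between the first 2 of these groups was 2.11 ± 0.11 (4.33-fold, adjusted p = 5.66e-07). The Epo group lay between them for both genes, with no overlap. Csf2rb was 1.3-fold lower after Epo (-0.38 ± 0.08, adjusted p = 0.03, n = 3 and 4), a call that was lost with 7 of the 11 arrays when each was left out (adjusted p = 0.0554 to 0.162), with spike-in scaling (0.0919) and with normexp background correction (0.0668). Csf2rb2 differed by -0.49 ± 0.12 (adjusted p = 0.0615) and was called after quantile normalization (adjusted p = 0.0312), with normexp (0.00602), in the authors' deposited values (0.0295) and without the first CD34- CD103- array (0.0395) or the first CD34+ CD103- array (0.0483). Against CD34+ CD103- cells the Epo group was higher by 1.33 ± 0.08 for Csf2rb (adjusted p = 6.28e-06) and by 1.62 ± 0.12 for Csf2rb2 (adjusted p = 3.1e-05).

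The beta chain genes are near-identical copies, and signal on a probe of one can come from the other. Csf2rb has 3 probes, and they did not behave alike. The brightest, A_52_P52618, gave the values above, but it is named Csf2rb only in the newer of the array's annotations. A_52_P492939, named in both, ran with it over the 26 arrays (r = 0.98 after each array set was centred on its own mean). It differed by -1.05 ± 0.18 in CR Sca1lo against Sca1hi, 2.77 ± 0.18 in EryCP against CR Sca1lo, -1.08 ± 0.16 in Ediff against EryCP repeat and 1.59 ± 0.14 in CD34- CD103- against CD34+ CD103- cells, all called. A_52_P664853, also named in both and brighter than A_52_P492939, went its own way (r = 0.33 with the brightest). It differed by -0.32 ± 0.32 (adjusted p = 0.931) and 0.57 ± 0.32 (adjusted p = 0.508) in the first 2 of these comparisons and was higher in Ediff than in EryCP repeat cells (0.79 ± 0.26, adjusted p = 0.0434). On this probe the Ediff arrays stood at 1.95, 1.12 and 1.77 and the EryCP repeat arrays at 0.77, 1.16 and 0.54, which overlap. It was called in the direction of the others from CD34+ CD103- to CD34- CD103- cells, 0.53 ± 0.12 (adjusted p = 0.0123), and to the Epo group (0.49 ± 0.13, adjusted p = 0.0496).

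The sequence around the start of Csf2rb2 is shown because this gene had the widest step of all members in the first set. It runs from 250 bases before to 50 bases after the start in RefSeq, on GRCm38.p6, chr15:78305672-78305971, minus strand. Capitals mark matches, on either strand, to a GATA hexamer (AGATAA or AGATAG or TGATAA or TGATAG) or to the PU.1 hexamer GAGGAA.
Csf2rb2: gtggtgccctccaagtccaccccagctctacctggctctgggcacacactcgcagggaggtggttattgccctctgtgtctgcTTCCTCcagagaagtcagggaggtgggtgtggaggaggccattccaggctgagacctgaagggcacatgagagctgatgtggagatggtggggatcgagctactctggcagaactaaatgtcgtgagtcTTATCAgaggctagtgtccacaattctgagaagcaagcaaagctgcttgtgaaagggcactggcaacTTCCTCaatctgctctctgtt
It holds 1 GATA match and 2 PU.1 matches, which do not overlap. Of 32851 RefSeq promoter windows of this length 29.8% hold a GATA match and 28.3% a PU.1 match. A match is a run of letters, not a bound site.

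The alpha chain genes took 3 different courses. Csf2ra, the ligand-binding chain of the GM-CSF receptor, kept within a narrow range. Its arrays spanned 1.1 to 1.46 in Sca1hi, 1.16 to 1.41 in CR Sca1lo and 1.34 to 1.70 in EryCP cells, and the fractions overlapped. EryCP against Sca1hi gave 0.27 ± 0.17 (adjusted p = 0.627), and 0.24 to 0.33 within the 3 slides, which was called with slide fitted as a block (adjusted p = 0.0291). EryCP against CR Sca1lo was called with that block too (0.25, adjusted p = 0.0436, 0.19 to 0.3 within slides), though not without it (adjusted p = 0.738). In the second set it stood at 1.89, 1.80 and 1.81 in EryCP repeat cells and at 1.08, 1.18 and 1.13 in Ediff cells. It was 1.63-fold lower there (-0.7 ± 0.08, adjusted p = 0.00101), -1.16 against the median of all genes. In the third set all 3 groups lay between 1.11 and 1.52 and none of the comparisons was called. Il3ra, the IL-3 binding chain, was called in none of the 7 comparisons within sets. It stood at 2.19, 2.19 and 2.34 in Sca1hi and at 1.83, 1.83 and 1.95 in CR Sca1lo cells, which did not overlap. That difference was -0.37 ± 0.15 (adjusted p = 0.341) and lay between -0.39 and -0.36 within slides, and with slide as a block it was called (adjusted p = 0.0367). Ediff against EryCP repeat gave -0.32 ± 0.12 (adjusted p = 0.0628), called with slide as a block (adjusted p = 0.0176, -0.38) and with spike-in scaling (-1.27, adjusted p = 0.000788). In the third set its groups overlapped, with 1 CD34+ CD103- array at 1.85 and the other 10 arrays between 2.46 and 2.97.

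Il5ra, the IL-5 binding chain that marks the eosinophil lineage, fell at each step from Sca1hi to EryCP. It stood at 0.53, 0.27 and -0.23 in Sca1hi, at -1.32, -1.16 and -1.21 in CR Sca1lo and at -2.92, -2.52 and -2.26 in EryCP cells, with no overlap. The steps were -1.42 ± 0.24 (2.68-fold, adjusted p = 0.0159) and -1.34 ± 0.24 (2.52-fold, adjusted p = 0.0157), and together -2.76 ± 0.24 (6.75-fold, adjusted p = 0.000291). Each single step lost its call with spike-in scaling (adjusted p = 0.11 and 0.0915) and with normexp (1 and 0.511), and was called with slide as a block (0.00364 and 0.00357). Of the 9 arrays, 5 ended the call of the first step when left out (adjusted p = 0.0574 to 0.0935) and 4 that of the second (0.0561 to 0.0779). In EryCP repeat cells it stood at -3.59, -3.57 and -4.10. It was not well above background on any of the 3 Ediff arrays, and on the processed signal EryCP repeat was at least 4.39-fold higher (fitted difference -2.53 ± 0.43, adjusted p = 0.00423). It was tested only because all EryCP repeat arrays were well above background, so that this direction was favoured. The bound is taken against the dimmest signal of any probe well above background on each Ediff array, or against the probe's own signal there where that is higher. It is not a detection limit of this probe, which stood at -5.41 on Ediff array 1 and was not well above background there. With normexp background correction the fitted difference was 0.28 (adjusted p = 0.853), so that the sign of the fitted value depends on how values near background are treated. The third set showed no call for Il5ra. CD34- CD103- cells at -1.33, -1.06, -1.47 and -1.10 overlapped CD34+ CD103- cells at -0.72, -1.17, -0.61 and -0.92 (-0.39 ± 0.18, adjusted p = 0.24). The Epo group at -1.72, -1.56 and -0.95 overlapped both, and against CD34+ CD103- cells it was called without Epo array 3 (-0.79, adjusted p = 0.0465) and with spike-in scaling (-1, adjusted p = 0.0118). The loss of Il5ra between Sca1hi and EryCP thus stood beside a rise on the brightest probe of Csf2rb, the beta chain it works with. On the Csf2rb probe A_52_P492939 that difference was 1.72 ± 0.18 and called, but on A_52_P664853 it was 0.25 ± 0.32 and not called. Csf2ra and Il3ra were not called there. The window around the start of Il5ra in RefSeq (GRCm38.p6, chr6:106748988-106749287, minus strand) is given for the member that fell at each step from Sca1hi to EryCP, with capitals as for Csf2rb2.
Il5ra: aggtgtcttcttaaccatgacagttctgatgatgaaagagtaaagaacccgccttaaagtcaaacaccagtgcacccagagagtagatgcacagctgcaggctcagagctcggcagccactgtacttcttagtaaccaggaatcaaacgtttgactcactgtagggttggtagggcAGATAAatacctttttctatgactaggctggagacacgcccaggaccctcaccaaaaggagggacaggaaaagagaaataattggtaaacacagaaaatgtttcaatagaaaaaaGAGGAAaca
It also holds 1 GATA match, with 1 PU.1 match.

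Csf3r, the receptor for the neutrophil growth factor G-CSF, was dim and highest in CR Sca1lo cells. It stood at -4.37, -4.29 and -4.13 in Sca1hi and at -2.70, -2.67 and -2.56 in CR Sca1lo cells. It was 3.07-fold higher in CR Sca1lo (1.62 ± 0.29, adjusted p = 0.0202, 1.56 to 1.7 within slides), where the beta chain genes were lowest. In EryCP cells it stood at -5.59, -4.4 and -5.39 and was well above background on 2 of 3 arrays. EryCP was 5.59-fold below CR Sca1lo (-2.48 ± 0.29, adjusted p = 0.00175), and its difference from Sca1hi was -0.87 ± 0.29 (adjusted p = 0.16), which was called with slide as a block (adjusted p = 0.0329) and without the second EryCP array (-1.23, adjusted p = 0.00531). The call between CR Sca1lo and Sca1hi was lost when any 1 array of those 2 fractions was left out (adjusted p = 0.0539 to 0.103), with spike-in scaling (0.0758) and with normexp (0.24, adjusted p = 1). Normexp also ended the call between EryCP and CR Sca1lo (-1.77, adjusted p = 0.524). In the third set Csf3r stood at -4.33, -4.4, -4.60 and -4.02 on the 4 CD34+ CD103- arrays, all above background. The CD34- CD103- arrays stood at -6.10, -5.72, -7.36 and -6.44, with 1 of 4 above background, and the Epo arrays at -6.82, -6.69 and -6.03, with 1 of 3. The fitted differences from CD34+ CD103- cells, whose size is uncertain because most arrays of the dimmer groups were not well above background, were -2.07 ± 0.32 (adjusted p = 0.00147) and -2.17 ± 0.34 (adjusted p = 0.00432). Csf3r was tested in this set only because all CD34+ CD103- arrays were well above background. The direction was thus favoured by the choice of probes, and these p-values cannot be taken as support for it. The second set had Csf3r above background on 1 of 3 arrays of EryCP repeat and 0 of 3 of Ediff, and it was not tested there. Against CD34+ CD103- cells the Epo group lost its call with normexp (-0.47, adjusted p = 0.258). In EryCP against CR Sca1lo and in CD34- CD103- against CD34+ CD103- cells, the fraction with less Cd34 had lower Csf3r values, in part below background, and higher levels of both beta chains.

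Csf1r, the macrophage growth factor receptor, was called in Ediff cells and in no other within-set comparison. In the second set it stood at -2.79, -2.58 and -2.91 in EryCP repeat and at 0.46, 0.28 and 0.39 in Ediff cells. It was 8.8-fold higher in Ediff (3.14 ± 0.12, adjusted p = 1.07e-05), or 2.68 against the median of all genes. The size depended on the scaling, with 3 after quantile normalization, 2.47 in the authors' deposited values, 2.19 with spike-in scaling and 1.66 with normexp, where it was not called (adjusted p = 0.279). All 3 Csf1r probes were higher in Ediff, by 3.14 ± 0.12, 1.84 ± 0.14 (A_52_P602091, adjusted p = 0.000146) and 0.97 ± 0.13 (A_52_P570471, adjusted p = 0.00159). On A_52_P602091 the Ediff arrays stood at -1.46, -1.66 and -1.65 and the EryCP repeat arrays at -3.40, -3.22 and -3.68. In the first set Csf1r ran from -2.05 to -0.93 over the 9 arrays and in the set of CD34 and CD103 fractions from -3.08 to -1.88 over the 11, with overlap between all groups of a set. Slide 1 of the first set was lowest in each fraction, as for Flt3. CR Sca1lo against Sca1hi, at -0.42 ± 0.29 (adjusted p = 0.749), was called with slide as a block (adjusted p = 0.0237, -0.49 to -0.29 within slides). Of the 9 monocyte and macrophage markers with a probe (Adgre1, Cd68, Lyz2, Cd14, Mrc1, Cd163, Fcgr1, Marco, Ly86 and Irf8 were listed, 10 in all), 7 were above background on every Ediff array and 8 on every EryCP repeat array. Their summed level was 0.88 to 1.32 in Ediff and 0.58 to 0.87 in EryCP repeat cells on the log2 scale. Of 8 tested, 3 were higher and 2 lower, against 39.7% and 16.8% of all genes. Mrc1 and Cd163 were not above background on any Ediff array. The part of macrophage-lineage cells in the Csf1r difference was not tested.

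Flt3, the receptor of early lymphoid and dendritic precursors, followed the slide more than the fraction in the first set. Its arrays stood at -2.42, -0.79 and -0.53 in Sca1hi, at -1.39, -2.49 and -0.97 in CR Sca1lo and at -1.10, -0.90 and -2.38 in EryCP cells. The 3 lowest values, -2.49 to -2.38, were the 3 arrays of 1 slide, while the other slides ran from -0.97 to -0.53 and from -1.39 to -0.79. The standard error of its differences was 0.63, against 0.14 to 0.29 for the other members, and none of the 3 comparisons was called, also with slide as a block (adjusted p = 0.0741 to 0.401). In the second set Flt3 stood at -2.18, -2.11 and -2.30 in EryCP repeat and at -1.15, -1.47 and -1.17 in Ediff cells (0.93 ± 0.12, adjusted p = 0.00147). Against the median of all genes this was 0.48, and with spike-in scaling the difference was -0.02 (adjusted p = 0.95), so that its direction in Ediff depends on the scaling. Normexp gave 0.58 (adjusted p = 0.797). Its groups overlapped in the set of CD34 and CD103 fractions, from -1.12 to 0.20, and none was called.

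**Figure D2:**
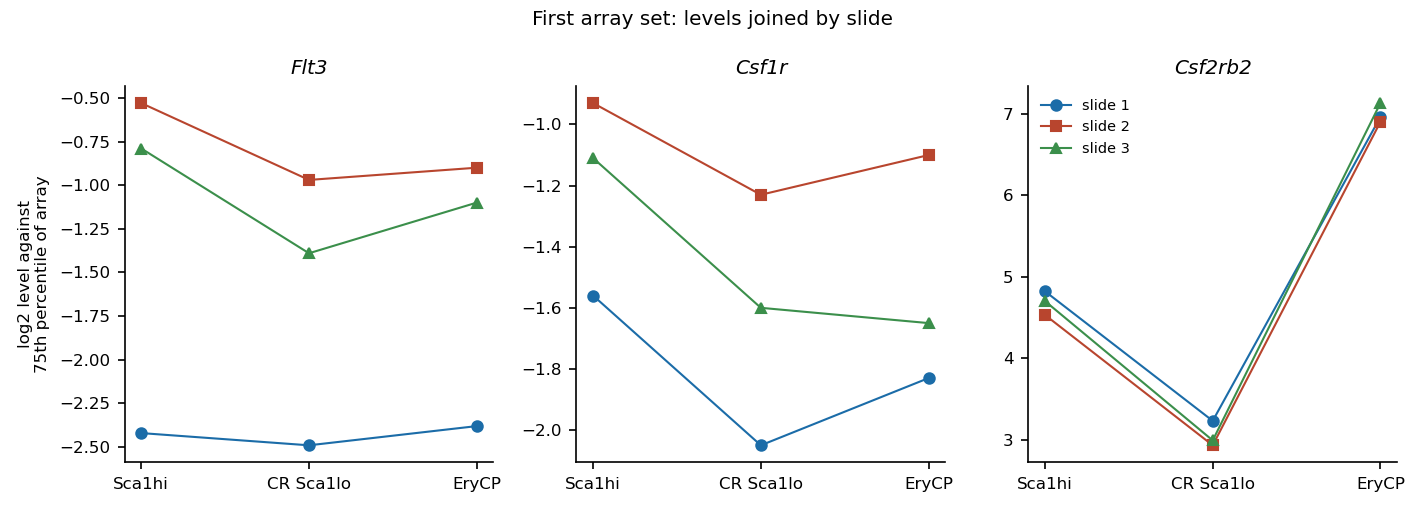
Levels of Flt3, Csf1r and Csf2rb2 in the first array set (y axes, log2 level against the 75th percentile of the array), with the 3 fractions on the x axis and a line joining the 3 arrays of each slide. For Flt3 slide 1 lies at -2.49 to -2.38 in every fraction, below the other slides, while the lines of Csf2rb2 lie close together.

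Il1rl1, the IL-33 receptor, had the largest difference from Sca1hi to EryCP among the members. It stood at 2.71, 2.72 and 2.49 in Sca1hi, at 3.20, 3.21 and 3.02 in CR Sca1lo and at 6.10, 5.87 and 6.05 in EryCP cells. EryCP was 7.28-fold above CR Sca1lo (2.86 ± 0.14, adjusted p = 3.33e-05, 2.84 to 2.9 within slides) and 10.3-fold above Sca1hi (3.36 ± 0.14, adjusted p = 1.08e-05). Unlike the beta chains it did not dip in CR Sca1lo cells, whose arrays all lay above the Sca1hi arrays (0.5 ± 0.14, adjusted p = 0.127). That step was called with slide as a block (adjusted p = 0.00304), after quantile normalization (0.0231) and in the authors' deposited values (0.0053). In the second set Il1rl1 stood at 5.58, 5.76 and 5.54 in EryCP repeat and at 3.52, 3.89 and 3.61 in Ediff cells, 3.87-fold lower (-1.95 ± 0.13, adjusted p = 9.92e-05) and -2.41 against the median of all genes. Over the third set it stood at 4.14, 4.24, 4.56 and 4.15 in CD34- CD103- and at 2.33, 2.40, 2.30 and 2.69 in CD34+ CD103- cells (1.84 ± 0.13, 3.59-fold, adjusted p = 1.22e-05). In the Epo group the spot of 1 array was marked by the scanner software and dropped, which left 2 arrays at 3.66 and 3.39. On these the Epo group was 1.68-fold below CD34- CD103- cells (-0.75 ± 0.16, adjusted p = 0.0438) and 2.14-fold above CD34+ CD103- cells (1.1 ± 0.16, adjusted p = 0.00386). The first of these calls was lost with 10 of the 11 arrays when each was left out (adjusted p = 0.0504 to 0.126), with spike-in scaling (0.1) and with no filter on dim probes (0.0643). Without Epo array 1 or Epo array 3 another probe stood for the gene (-0.5, adjusted p = 0.0759, and -0.44, adjusted p = 0.126), so these do not test the bright probe. The second call was lost in the authors' deposited values (0.64, adjusted p = 0.284).

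The gene makes a membrane receptor and a soluble form from different transcripts, and the 3 probes carry 2 RefSeq accessions. A_52_P484194, with an accession of its own, is the bright probe described above. A_51_P339793 and A_52_P19955 share the other accession. All 3 were higher in EryCP than in CR Sca1lo cells, the last 2 by 1.84 ± 0.17 (adjusted p = 0.000531) and 1.73 ± 0.28 (adjusted p = 0.00901). All 3 were also higher in CD34- CD103- than in CD34+ CD103- cells, with 1.27 ± 0.08 and 1.78 ± 0.12 on the same probes, and lower in Ediff than in EryCP repeat cells, with -0.48 ± 0.1 (adjusted p = 0.00831) and -0.91 ± 0.17 (adjusted p = 0.00553). On A_51_P339793, measured on all 3 Epo arrays at 0.73, 0.79 and 0.63 against 1.06, 1.29, 1.24 and 1.24 in CD34- CD103- cells, the fall after Epo was -0.49 ± 0.09 (adjusted p = 0.0195). The probes parted at the first step: CR Sca1lo was above Sca1hi on A_51_P339793 (0.96 ± 0.17, adjusted p = 0.0186) and not called on A_52_P19955 (-0.13 ± 0.28, adjusted p = 1). Which transcript each probe reads was not analysed here.

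**Figure D3:**
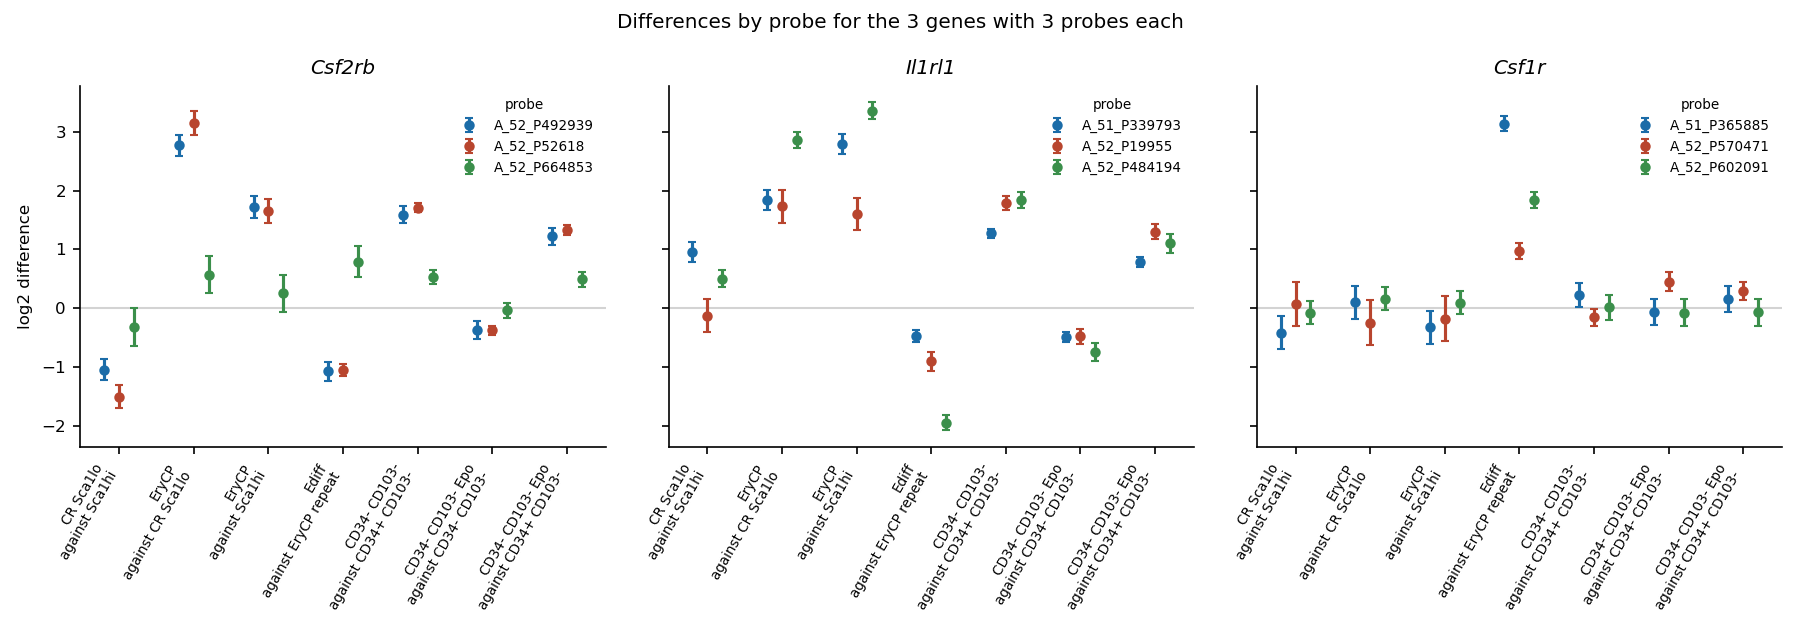
Log2 difference ± standard error (y axis) of each probe of Csf2rb, Il1rl1 and Csf1r in the 7 comparisons within array sets (x axis). For Csf2rb the probe A_52_P664853 lies apart, at 0.79 in Ediff against EryCP repeat where the other probes lie at -1.08 and -1.05, while the 3 Csf1r probes are all higher in Ediff, by 0.97 to 3.14.

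RefSeq places 2 starts in the Il1rl1 promoter table, and both windows (GRCm38.p6, plus strand) are printed because this receptor had the largest difference from Sca1hi to EryCP and has transcripts of different starts, again with GATA and PU.1 matches in capitals.
Il1rl1, chr1:40429320-40429619: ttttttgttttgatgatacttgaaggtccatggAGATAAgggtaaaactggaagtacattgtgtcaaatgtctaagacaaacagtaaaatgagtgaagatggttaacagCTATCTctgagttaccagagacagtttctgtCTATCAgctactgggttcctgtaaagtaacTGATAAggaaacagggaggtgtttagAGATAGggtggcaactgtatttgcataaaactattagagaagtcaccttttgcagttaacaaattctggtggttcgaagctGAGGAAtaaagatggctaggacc
Il1rl1, chr1:40439379-40439678: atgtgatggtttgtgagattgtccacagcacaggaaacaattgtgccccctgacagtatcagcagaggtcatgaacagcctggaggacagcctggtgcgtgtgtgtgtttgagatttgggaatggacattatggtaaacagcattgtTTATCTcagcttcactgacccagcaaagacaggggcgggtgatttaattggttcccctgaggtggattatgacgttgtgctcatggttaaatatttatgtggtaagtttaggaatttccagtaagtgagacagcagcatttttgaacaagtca
The first window holds 5 GATA matches and 1 PU.1 match, and 0.0548% of all windows hold 5 or more GATA matches. The second holds 1 GATA match and 0 PU.1 matches, and 1 match to the RUNX hexamer TGTGGT, which 16.8% of all windows hold. The STAT motif (TTC and GAA around 3 free bases) was found in the Csf2rb2 window once and in neither Il1rl1 window, and 8.3% of all windows hold it. These counts describe letters and say nothing of which factor binds.

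**Figure D4:**
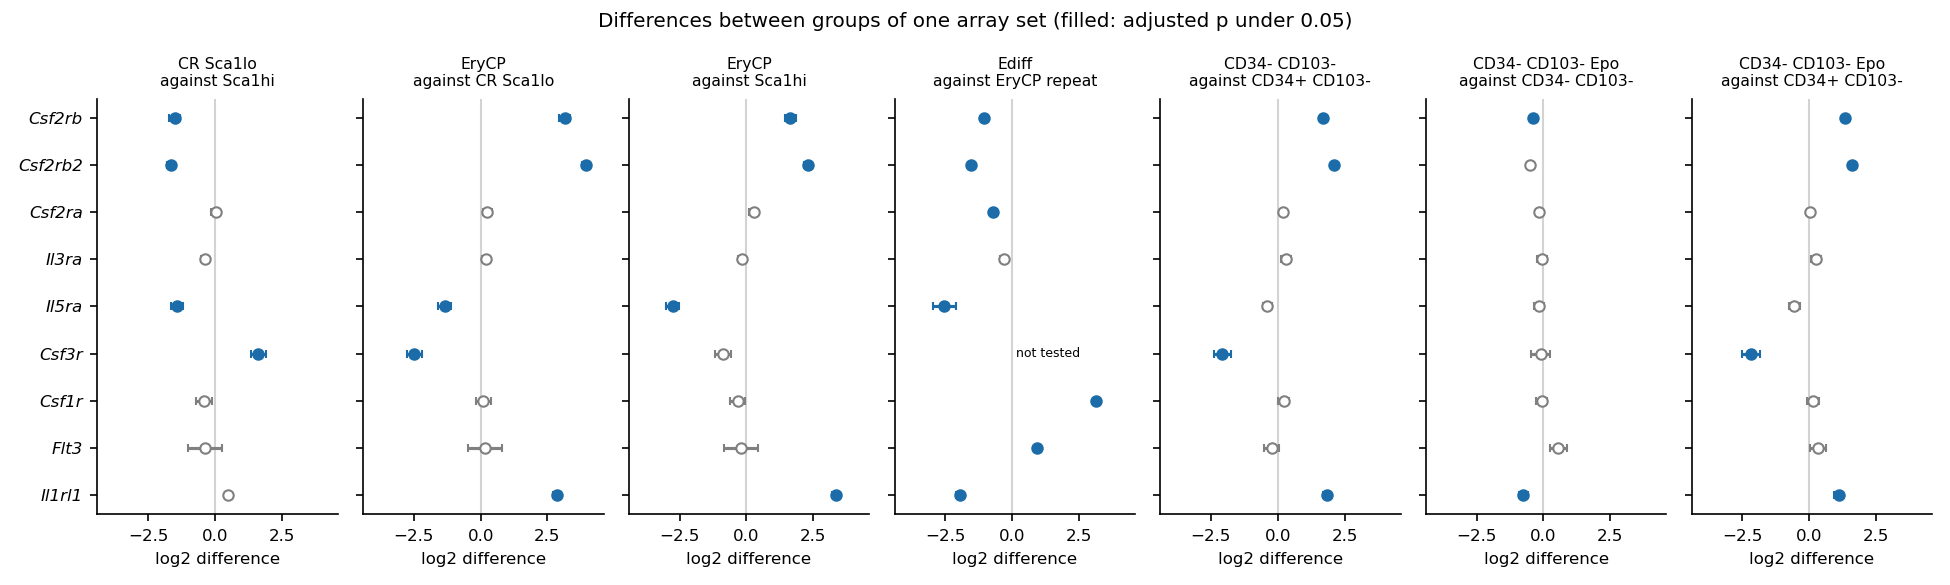
Log2 difference ± standard error (x axes) of each member (y axis) in the 7 comparisons within array sets, filled where the adjusted p was under 0.05. Csf2rb, Csf2rb2 and Il1rl1 lie to the right in EryCP and in CD34- CD103- cells and to the left in Ediff, Csf3r lies on the other side in EryCP against CR Sca1lo and in CD34- CD103- against CD34+ CD103-, and Csf1r is far from 0 only in Ediff, at 3.14.

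The Epo responses were set against each other as the change from CD34- CD103- to CD34- CD103- Epo minus the change from EryCP repeat to Ediff, each taken within its own array set. Of 8 tested members 6 were called, 5 higher and 1 lower, where 41.7% of all genes were called, 16.2% higher and 25.4% lower, and the median of all genes was -0.34. For Csf1r, called in Ediff and not in the CD34- CD103- Epo group, the responses differed by -3.21 ± 0.28 (adjusted p = 2.5e-07). Il1rl1 (1.2 ± 0.21, adjusted p = 0.000372), Csf2rb2 (1.04 ± 0.16, adjusted p = 9.51e-05), Csf2rb (0.67 ± 0.11, adjusted p = 0.00015) and Csf2ra (0.55 ± 0.12, adjusted p = 0.00244) had a smaller drop in the CD34- CD103- experiment. Il5ra was called as well (fitted 2.36 ± 0.45, adjusted p = 0.000609), but it was not well above background on any Ediff array, so that the fitted size cannot be taken as measured, and normexp gave -0.34 (adjusted p = 0.952). On the Csf2rb probe A_52_P664853 the sign was the other way (-0.84 ± 0.27, adjusted p = 0.023). Under normexp Csf1r was the only one of the 6 still called. Il3ra (0.26 ± 0.26, adjusted p = 0.418) and Flt3 (-0.38 ± 0.39, adjusted p = 0.451) were not called. For Il1rl1 the difference rests on the bright probe: it was -0.01 ± 0.13 (adjusted p = 0.941) on A_51_P339793 and 0.42 ± 0.21 (adjusted p = 0.115) on A_52_P19955, and in the authors' deposited values the bright probe gave 0.81 (adjusted p = 0.0948). The 2 starting populations, the sorts after Epo and the array sets differ between these experiments and cannot be told apart. On simulated data this contrast called more unchanged genes than its threshold allows, so that its adjusted p-values are likely too small.

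Of 8 ligand genes 5 were tested in the first set, and Csf1 moved most. Csf1, the ligand of Csf1r, was 10.8-fold lower in CR Sca1lo than in Sca1hi cells (-3.44 ± 0.28, adjusted p = 0.000507) and 6.76-fold higher in EryCP than in CR Sca1lo cells (2.76 ± 0.28, adjusted p = 0.000783), a dip like that of the beta chains. It was higher in CD34- CD103- than in CD34+ CD103- cells (3.34 ± 0.13, adjusted p = 5.15e-08) and 11.3-fold lower after Epo (-3.49 ± 0.14, adjusted p = 3.53e-07), where Csf1r was not called. Flt3l, the ligand of Flt3, was lower in CR Sca1lo than in Sca1hi cells (-0.78 ± 0.15, adjusted p = 0.0291). In Ediff 4 of 5 tested ligands were higher and 0 lower (list median 0.94, all genes 0.46), where 39.7% of all genes were called higher and 16.8% lower. Among them were Flt3l (1.75 ± 0.09, adjusted p = 2.79e-05) and the GM-CSF gene Csf2, which was not above background in EryCP repeat cells. By the bound used for Il5ra, Csf2 was at least 3.34-fold higher on the processed signal. Csf2 was tested only because all Ediff arrays were well above background, so that this direction was favoured.

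Of 26 partners and signalling genes tested, 0 were higher and 2 lower in CR Sca1lo against Sca1hi (list median -0.05, all genes 0.03), and 1 was higher and 3 lower in EryCP against CR Sca1lo (-0.08, all genes -0.07). Lyn, a Src-family kinase bound to the beta chain, shared the dip of the beta chains in CR Sca1lo cells and their rise from there to EryCP. Unlike the beta chains, Lyn was not called higher in EryCP than in Sca1hi cells, where 0 of 26 tested partners were. It was lower in CR Sca1lo than in Sca1hi cells (-1 ± 0.17, adjusted p = 0.0158), higher in EryCP than in CR Sca1lo cells (1.48 ± 0.17, adjusted p = 0.00156) and higher in CD34- CD103- than in CD34+ CD103- cells (0.89 ± 0.1, adjusted p = 0.000219). Stat3, which transmits the G-CSF signal, was lower in EryCP than in CR Sca1lo cells (-1.77 ± 0.19, adjusted p = 0.000996). It was also lower in CD34- CD103- than in CD34+ CD103- cells (-0.88 ± 0.12, adjusted p = 0.000613). In Ediff 13 of 26 were lower and 8 higher (list median -0.37, all genes 0.46), against 16.8% and 39.7% of all genes. The kinase gene Fes was 11.9-fold lower (-3.57 ± 0.1, adjusted p = 3.5e-06) and the phospholipase gene Plcg2 6.68-fold lower (-2.74 ± 0.1, adjusted p = 9.95e-06). After Epo in the third set 1 was higher, Jak1 (0.4 ± 0.08, adjusted p = 0.0281), and 0 lower. CD34- CD103- against CD34+ CD103- cells had 1 higher and 4 lower (-0.14, all genes -0.06).

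Feedback inhibitors parted from each other. Of 14 tested, 0 were higher and 3 lower in CR Sca1lo against Sca1hi (list median -0.26, all genes 0.03), and 2 higher and 2 lower in EryCP against CR Sca1lo (-0.1, all genes -0.07). In Ediff 6 were higher and 5 lower (0.56, all genes 0.46), where 39.7% of all genes were called higher and 16.8% lower. Socs3, an inhibitor of the G-CSF and gp130 receptors, fell at both steps of the first set, with differences of -2.42 ± 0.15 (adjusted p = 0.000161) and -1.93 ± 0.15 (adjusted p = 0.000197). Cish, a Stat5 target that dampens Epo and IL-3 signalling, was higher in EryCP than in CR Sca1lo cells (1.94 ± 0.16, adjusted p = 0.000288), in CD34- CD103- than in CD34+ CD103- cells (1.23 ± 0.08, adjusted p = 2.46e-06) and, 21.7-fold, in Ediff than in EryCP repeat cells (4.44 ± 0.11, adjusted p = 2.78e-06). In CD34- CD103- cells after Epo it was lower (-0.43 ± 0.08, adjusted p = 0.0272), and its responses to Epo differed by -4.87 ± 0.12 (adjusted p = 2.93e-13). The adaptor gene Dok2 was 28.1-fold lower in Ediff (-4.81 ± 0.09, adjusted p = 1.4e-06). Of 12 survival and growth targets of beta chain signalling, 1 was higher and 0 lower in CR Sca1lo against Sca1hi and 2 were higher and 3 lower in EryCP against CR Sca1lo. This one was Ccnd2, which encodes a D-type cyclin (2.01 ± 0.19, adjusted p = 0.000977). Fos (2.55 ± 0.28, adjusted p = 0.00119) and Id1 (-2.19 ± 0.26, adjusted p = 0.00179) led in EryCP against CR Sca1lo. In Ediff 7 were higher and 3 lower (list median 0.5, all genes 0.46), against 39.7% and 16.8% of all genes. The kinase gene Pim1 was 22.6-fold higher there (4.5 ± 0.11, adjusted p = 2.93e-06). In CD34- CD103- against CD34+ CD103- cells 3 were higher and 4 lower, with Egr1 at 1.72 ± 0.2 (adjusted p = 0.000255) and lower again after Epo (-1.13 ± 0.22, adjusted p = 0.0248).

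Of 29 other cytokine receptor genes tested, 2 were higher and 5 lower in CR Sca1lo against Sca1hi (list median -0.22, all genes 0.03), and 3 were higher and 3 lower in EryCP against CR Sca1lo (0.05, all genes -0.07). The Epo receptor gene Epor was higher in EryCP than in CR Sca1lo cells (2.71 ± 0.17, adjusted p = 8.4e-05), as the beta chains were. The same held in CD34- CD103- against CD34+ CD103- cells (2.21 ± 0.17, adjusted p = 1.11e-05). In Ediff it parted from them: Epor was among the 10 of 10 erythroid markers called higher there, while both beta chains were lower. Il7r, the IL-7 receptor chain, was 12.1-fold lower in CR Sca1lo than in Sca1hi cells (-3.59 ± 0.3, adjusted p = 0.000574). It was higher in CD34- CD103- than in CD34+ CD103- cells (2.61 ± 0.33, adjusted p = 0.000427) and 14.6-fold lower after Epo (-3.87 ± 0.36, adjusted p = 0.000164). Il6st, the gp130 chain of the IL-6 receptor family, was lower in EryCP than in Sca1hi cells (-2.76 ± 0.18, adjusted p = 7.1e-05). In Ediff 12 were lower and 7 higher (list median 0.0, all genes 0.46), where 16.8% of all genes were called lower and 39.7% higher. Tgfbr2 (-4.52 ± 0.12, adjusted p = 3.46e-06) and Il18r1 (-4.45 ± 0.33, adjusted p = 0.000136) led.

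Markers of mast cells and of erythroid cells were mostly higher where the beta chains and Il1rl1 rose, in EryCP and in CD34- CD103- cells. Over all genes, 1.22% were called higher and 2.38% lower in CR Sca1lo against Sca1hi, and 2.7% and 2.3% in EryCP against CR Sca1lo. The shares were 5.62% and 6.57% in CD34- CD103- against CD34+ CD103-, and 0.757% and 1.84% in CD34- CD103- Epo against CD34- CD103-. EryCP against Sca1hi had 3.11% and 3.32%, and Ediff against EryCP repeat 39.7% and 16.8%. In CR Sca1lo against Sca1hi, where both beta chains fell, 1 of 9 mast cell markers was higher and 1 lower, and 1 of 9 erythroid markers was higher and 0 lower. Of 9 tested mast cell and basophil markers 7 were higher and 0 lower in EryCP against CR Sca1lo, 7 and 0 in CD34- CD103- against CD34+ CD103-, 0 and 6 in CD34- CD103- Epo against CD34- CD103-, and 0 and 8 in Ediff against EryCP repeat. Their log2 summed level was 7.71 to 8.3 in Sca1hi, 7.39 to 7.9 in CR Sca1lo, 9.31 to 9.82 in EryCP, 9.53 to 9.73 in EryCP repeat and 3.46 to 3.73 in Ediff cells, and 9.54 to 9.63, 8 to 8.22 and 8.5 to 8.55 in CD34- CD103-, CD34+ CD103- and CD34- CD103- Epo cells. All 9 were above background on every array of each group but Ediff, where 8 were. Of erythroid markers 7 of 9 were higher in EryCP against CR Sca1lo and 8 of 10 in CD34- CD103- against CD34+ CD103-, with 0 lower in both. In Ediff 10 of 10 were higher, where 39.7% of all genes were called higher and 16.8% lower. In CD34- CD103- Epo cells, labelled as differentiated under Epo, 0 of 10 erythroid markers were higher and 3 lower than in CD34- CD103- cells, and the summed level was 2.17 to 2.37 against 2.72 to 3.26. It was 9.83 to 9.87 in Ediff and 5.01 to 5.47 in EryCP repeat cells, so that in Ediff the beta chains and Il1rl1 were lower where mast cell markers were lower and erythroid markers higher. The summed level of the neutrophil list was 8.36 to 8.82 in Sca1hi, 8.51 to 9.04 in CR Sca1lo and 7.11 to 7.74 in EryCP cells. Sca1hi and CR Sca1lo overlapped. In the third set the list stood at 8.23 to 8.4 in CD34- CD103- against 8.79 to 9.09 in CD34+ CD103- cells. It was thus lower in EryCP and in CD34- CD103- cells, where Csf3r was lower. For Csf3r that direction was favoured in the third set by the choice of probes. By gene, 1 of 9 was higher and 0 lower in CR Sca1lo against Sca1hi, 2 of 9 were higher and 1 lower in EryCP against CR Sca1lo, and 4 of 10 were higher and 1 lower in CD34- CD103- against CD34+ CD103-. Of the eosinophil list 0 of 6 were called in CR Sca1lo against Sca1hi and in EryCP against Sca1hi, and 1 of 6 was lower and 0 higher in EryCP against CR Sca1lo, all comparisons in which Il5ra fell. The part of these cell types in the receptor differences was not tested.

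**Figure D5:**
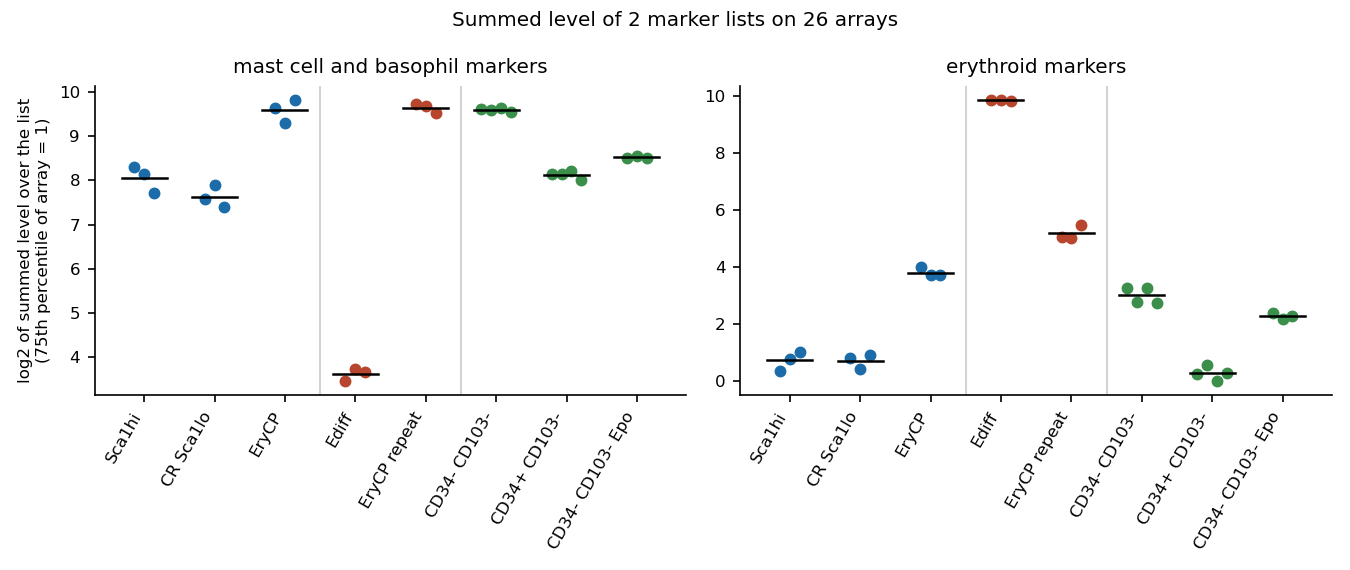
Log2 of the summed level (y axis, where the 75th percentile of the array counts as 1) of the mast cell and basophil list and of the erythroid list on each array (each panel has its own scale), by group (x axis). Points are arrays, lines are group means and vertical lines part the array sets. The mast cell list is lowest in Ediff, at 3.46 to 3.73, where the erythroid list is highest, at 9.83 to 9.87.

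Genes that followed each member most closely were found over the 26 arrays, each set centred on its own mean, among 15262 to 15484 genes. These r values describe arrays that share groups, slides and one large Epo contrast, and carry no test. Csf2rb and Csf2rb2 were each other's nearest gene (r = 0.989), followed by Ski (0.978) for Csf2rb and Atp8b2 (0.977) for Csf2rb2. Il1rl1 was nearest to Pepd (0.983, 25 arrays) and Efnb1 (0.982), and ran with Csf2rb2 (0.89) and Csf2rb (0.85). Il5ra was nearest to Fcgr2b, an inhibitory antibody receptor (0.975), and Cds1 (0.966). Csf1r was nearest to Gadd45g (0.989) and Mmel1 (0.975), Flt3 to Bgn (0.968) and Mapk8ip2 (0.963), and Csf2ra to Orai2 and Myo1c (both 0.934). Csf3r was nearest to the eosinophil peroxidase gene Epx (0.865) and Il17re (0.849), and ran against Csf2rb (-0.8). It was well above background on only 15 of the 26 arrays, so that its r values rest in part on signal near background. Il3ra had no close follower, with Raet1e (0.69) and Camk1d (0.671) first.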

How the data were processed

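Total RNA of 26 samples in 8 groups was labelled with Cy3 and hybridised to 1-colour arrays. Per the file headers, images were read with Agilent Feature Extraction 10.1.1.1 or 10.7.1.1. The deposited scanner files hold spot intensity (background-subtracted processed signal) and marks for spots well above background, uneven or outlying. The authors' deposited value table is in log2, by comparison with the scanner values; its centring is not given in the sources used here (column medians 7.09 to 7.29). It served as an alternative. The deposited marks hold other values, 0 or 1 per spot. The number of arrays limits the precision.

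Control spots and marked spots were left out, log2 signals were centred on the 75th percentile of the array, and spots of a probe were averaged. The files give accessions and no symbols, so probes were named through RefSeq names (GRCm38.p6), and 27071 of 41174 probes matched. Probes stayed in if some group had all its arrays well above background and each group had 2 or more measured arrays. The brightest probe stood for its gene, and each probe without a name was tested on its own. Each array set had 1 fit of all its groups in limma 3.58.1 (lmFit, eBayes; R 4.3.3 with data.table, version 1.17.8), without a block, and a probe-level fit gave the values by probe. The steps were tested on simulated data, and matplotlib 3.10.9 (Python 3.11.15) made the figures. The members and gene lists were chosen with earlier results of these data known. Named genes were all members and, per list and comparison, the 2 called genes of largest difference, of which a part is printed, and the 2 genes most like each member. Alternatives were slide as a block, normexp background correction (offset 50), quantile normalization, spike-in scaling, the deposited table, other filters on dim probes, every probe tested, the first set without slide 2 and each array left out. One naming alternative, the brighter of the Csf2rb probes named in both annotations (A_52_P664853), was chosen after seeing the data.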

Additional observations from a re-analysis of the deposited data

Results flagged for a closer look

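The Epo responses of 6 receptor genes differed between the experiments by the test of the difference itself. The log2 difference (CD34- CD103- experiment minus EryCP experiment) was 0.67 for Csf2rb, 1.04 for Csf2rb2, 0.55 for Csf2ra, 2.36 for Il5ra, -3.21 for Csf1r and 1.2 for Il1rl1, where the median of all genes was -0.34 and 41.7% of all genes were called. On simulated data this contrast called more unchanged genes than its threshold allows, and with normexp only Csf1r of the 6 was called. Il5ra was not well above background on any Ediff array. Other probes gave -0.01 for Il1rl1 (A_51_P339793) and -0.84 for Csf2rb (A_52_P664853). Of 18 checks of groups of 4 arrays, 0 found an array far from the others.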

How the results depend on the processing

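No paired analysis was possible because the groups compared share no replicate numbers in the labels. Arrays that share a slide were instead compared with slide as a block and within slides. The number of members called in CR Sca1lo against Sca1hi, 4, became 7 under the slide block, 0 with normexp, 2 on spike-in scaling and 2 to 4 with single arrays left out. Normexp, which called 2 of all genes there, 75 in EryCP against CR Sca1lo and 232 in Ediff against EryCP repeat, gave 3 members in EryCP against CR Sca1lo (against 5), 3 in EryCP against Sca1hi (against 4), 0 in Ediff against EryCP repeat (against 7) and 1 in the difference of the Epo responses (against 6). The 2 calls of CD34- CD103- Epo against CD34- CD103- became 0 with spike-in scaling, 1 with no filter on dim probes and 0 to 2 with single arrays left out. The cause was not tested. Over all genes the first set's 3 comparisons gave 953, 1323 and 1701 calls, 4707, 5378 and 5503 under the slide block, 1611, 2308 and 2384 after quantile normalization, 2217, 2987 and 2888 in the deposited table and 417, 723 and 971 on spike-in scaling. Spike-in scaling took CD34- CD103- against CD34+ CD103- from 3337 to 5134 and CD34- CD103- Epo against CD34+ CD103- from 1453 to 10182. With single arrays left out the other counts stayed at 4 to 5, 4 to 5, 7, 4, 4 to 5 and 5 to 6, in the order of the report.

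Signs of called differences turned for Flt3 in Ediff with spike-in scaling (-0.02). With normexp they turned for Il5ra in Ediff (0.28) and in the difference of the Epo responses (-0.34). For Csf2rb they turned on A_52_P664853, the brighter of its probes named in both annotations (0.79 in Ediff, -0.84 in the difference). On A_52_P492939, also named in both, they kept their sign (-1.08 and 0.71). The Il1rl1 difference of the Epo responses became -0.01 when probes had to be above background on every array, where another probe stood for the gene, and ran from -0.02 to 1.31 with arrays left out, the low end again on another probe. Uncalled differences that changed sign were, with normexp, -0.04 for Csf2ra and 0.07 for Flt3 in CR Sca1lo against Sca1hi, -0.48 for Csf1r and -0.53 for Flt3 in EryCP against CR Sca1lo, 0.2 for Il3ra in EryCP against Sca1hi, 0.21 for Csf3r in the third set's Epo comparison and 0 for Csf2ra against CD34+ CD103-. With spike-in scaling they were -0.01 for Csf1r and -0.05 for Csf2ra in CD34- CD103- against CD34+ CD103-, -0.3 for Csf1r, -0.42 for Csf2ra, -0.11 for Flt3 and -0.19 for Il3ra in CD34- CD103- Epo against CD34+ CD103-, and 0.35 for Flt3 in the difference of the Epo responses, which was 0.04 in the deposited table. With arrays left out the ranges were -0.04 to 0.14 for Csf2ra and -0.95 to 0.07 for Flt3 in CR Sca1lo against Sca1hi, -0.11 to 0.3 for Csf1r and -0.28 to 0.62 for Flt3 in EryCP against CR Sca1lo, and -0.8 to 0.25 for Flt3 in EryCP against Sca1hi. For CD34- CD103- Epo they were -0.16 to 0.07 for Csf1r, -0.42 to 0.12 for Csf3r and -0.15 to 0.05 for Il3ra against CD34- CD103-, and -0.03 to 0.25 for Csf1r and -0.03 to 0.07 for Csf2ra against CD34+ CD103-. Normexp moved 54 of 72 group levels by more than 1 SD. Signal over background limits Csf3r, and Il5ra in Ediff.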
